A study of Homo sapiens with 12 samples.

Results

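The genes described here are 53 members of enzyme families that oxidise, reduce or conjugate drugs, aldehydes, steroids and fatty acids, out of 4988 genes listed in the mRNA table. They were taken by gene name, and the families were chosen with earlier results of these data known. The names covered aldehyde dehydrogenases (ALDH), aldo-keto reductases (AKR), glutathione transferases (GST), cytochromes P450 (CYP, without CYP51A1), glucuronosyltransferases (UGT) and sulfotransferases (SULT). They also covered short-chain dehydrogenases (DHRS), hydroxysteroid dehydrogenases (HSD), alcohol dehydrogenases (ADH), acyl-CoA dehydrogenases (ACAD), acyl-CoA thioesterases (ACOT) and the monoamine oxidases (MAO). Total RNA came from xenografts of Hep3B, an established human hepatocellular carcinoma cell line, with 3 libraries labelled control and 3 labelled as treated with bufotalin, a cardiac steroid found in toad venom. The sources used here do not give the dose, the duration, the host strain or whether libraries came from separate animals, so p-values measure only the spread between these libraries, which may be technical. The question of the comparison, per the labels, was how expression differed between the control and treated groups.

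Foreign compounds and reactive by-products of metabolism are usually handled in stages. Cytochromes P450, monoamine oxidases and dehydrogenases first oxidise or reduce a molecule. Transferases then attach glutathione, sulfate or glucuronic acid, which makes it soluble enough to export. The liver is the main site of both stages, and the acyl-CoA enzymes of the same lists break down fatty acids and branched amino acids in mitochondria and peroxisomes.

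The authors listed only genes they had selected as different on these samples, and values are FPKM (fragments per kilobase of transcript, scaled to library size), with unknown sequencing depth. Sums over the listed genes only were 102677 to 105803 FPKM in the control libraries and 114207 to 121337 FPKM in treated libraries. Of 22 hepatocyte and liver tumour markers, 3 were listed: the keratin gene KRT8 rose with overlapping groups, the vitronectin gene VTN fell, and the transferrin gene TF was at 0 in all 3 controls. Since the table is a selection, the cell type could not be checked further. Most listed markers of other cell types differed too, as did 93.2% of all tested genes (48.8% called lower and 44.3% called higher). Of 15 fibroblast markers 8 were listed, 7 were tested and all 7 fell, with a summed level of 84.2 to 88.7 FPKM in the controls and 23.9 to 29.8 FPKM in treated libraries. The adipocyte marker CIDEC, alone of 5 to be listed, fell from a mean of 4.42 to 0.135 FPKM, while of 11 leukocyte markers 3 were listed, with sums of 3.18 to 3.53 and 4.61 to 6.82 FPKM. Among them CSF1R rose from a mean of 3.31 to 4.99 FPKM, and CD14 (0.0313 and 0.631 FPKM) and ITGAM (0.0446 FPKM and listed at 0) were below the minimum for testing. Of 10 endothelial markers 2 were listed, with sums of 32.2 to 33.7 and 8.46 to 10.6 FPKM: EGFL7 fell from a mean of 32.6 to 8.45 FPKM and CDH5 rose from 0.0657 to 0.943 FPKM. Of 8 erythroid and muscle markers 2 were listed: DES fell from 2.01 to 0.0646 FPKM, and HBB was not called, with 13.4 FPKM in control replicate 3 and at most 0.552 FPKM in each of the other 5 libraries. Of the tested markers, CIDEC, DES, HBB and the fibroblast markers ACTA2 and PDGFRB passed that minimum only through their control level. CDH5 passed it only through its treated level. In bulk tumours, fewer cells of a type and less RNA per cell cannot be told apart, and the part of these cells, or of host reads, in the values below was not tested.

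Most of the enzyme genes were lower in treated tumours. With limma on log2(FPKM + 1), 45 genes averaged 0.5 FPKM or more over all libraries and were tested, and all 45 passed at an adjusted p under 0.05; 38 were lower and 7 higher. Of all 4273 genes tested, 93.2% were called, so the number called says nothing about these enzymes. The directions were more uneven than in the table: 84.4% of the enzyme genes were called lower against 48.8% of all tested genes, and 15.6% higher against 44.3%. The median log2 fold change was -1.17 for the enzymes and 0.13 for all tested genes. Without bufotalin replicate 1, 2 or 3 the median of all tested genes turned to -0.17, -0.06 or -0.27. That of the enzymes stayed between -1.23 and -1.12 whichever library was left out. The FPKM minimum was applied anew each time, with 4310, 4308 or 4302 genes tested without bufotalin replicate 1, 2 or 3. These medians thus cover different sets of genes. At least 2-fold falls on that scale were seen for 28 enzyme genes, or 62.2%, compared with 25.9% of all tested genes. Among called genes that were lower, the median was -1.32 for the enzymes and -1.02 for the table. Treated libraries lay wholly below control libraries for 43 of the 53 listed members (51.7% of all listed genes did so) and wholly above for 9 (40.7%), so that 52 had separate groups, against 92.4% of all listed genes. These shares are descriptions of a selected table, for families chosen with earlier results of these data known, and were not tested against it. Of the tested members, ALDH3A1, CYP11A1, SULT1A2 and ACADSB passed the FPKM minimum only through their control level, and AKR1C4 only through its treated level.

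**Figure D1:**
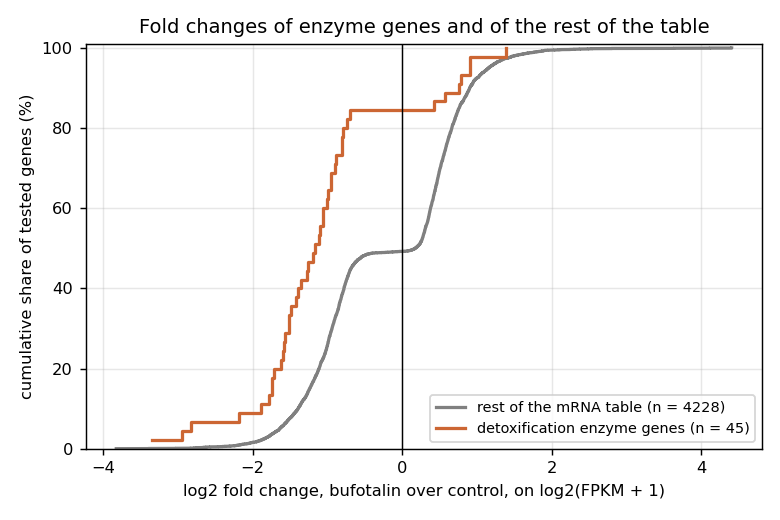
Cumulative share of tested genes (vertical axis, percent) against the log2 fold change of bufotalin over control (horizontal axis, on log2(FPKM + 1)) for 45 enzyme genes and 4228 other genes of the mRNA table. The enzyme curve reaches 84.4% below 0, the curve of the other genes lies to its right, and both are flat around 0, in a table of genes selected as different.

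The decline was shared by most families. All 7 tested ALDH genes, all 7 GST genes, all 6 ACAD genes, all 4 HSD genes, both tested SULT genes and MAOB fell. Of the 4 AKR genes 3 fell, as did 3 of 4 ACOT genes and 3 of 5 DHRS genes. The P450 family differed in composition, with 3 higher and 2 lower among 5 tested genes. Among the other families with at least 2 tested genes, class medians ran from -1.59 for HSD, -1.57 for GST and -1.51 for ALDH, through -1.31 for SULT, -1.06 for AKR and for DHRS and -1.04 for ACOT, to -0.80 for ACAD. This order depended on the normalization: under quantile normalization the medians were -1.33 for ALDH, -1.30 for AKR, -1.14 for HSD, -1.07 for GST, -0.94 for ACAD, -0.68 for SULT, -0.62 for DHRS and -0.47 for ACOT. With a pseudocount of 0.1 ACAD was at -1.27 and SULT at -2.14. The differences between classes were not tested. In RefSeq, 200 protein-coding genes match the same name rule and 53 of them (26.5%) were listed here, compared with 4737 of 20052 protein-coding genes (23.6%) overall. Coverage by family ran from 6 of 9 ACAD genes and 8 of 19 ALDH genes to 10 of 55 CYP genes, 1 of 22 UGT genes and 0 of 7 ADH genes. Genes of a family that were not listed were not analysed here.

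**Figure D2:**
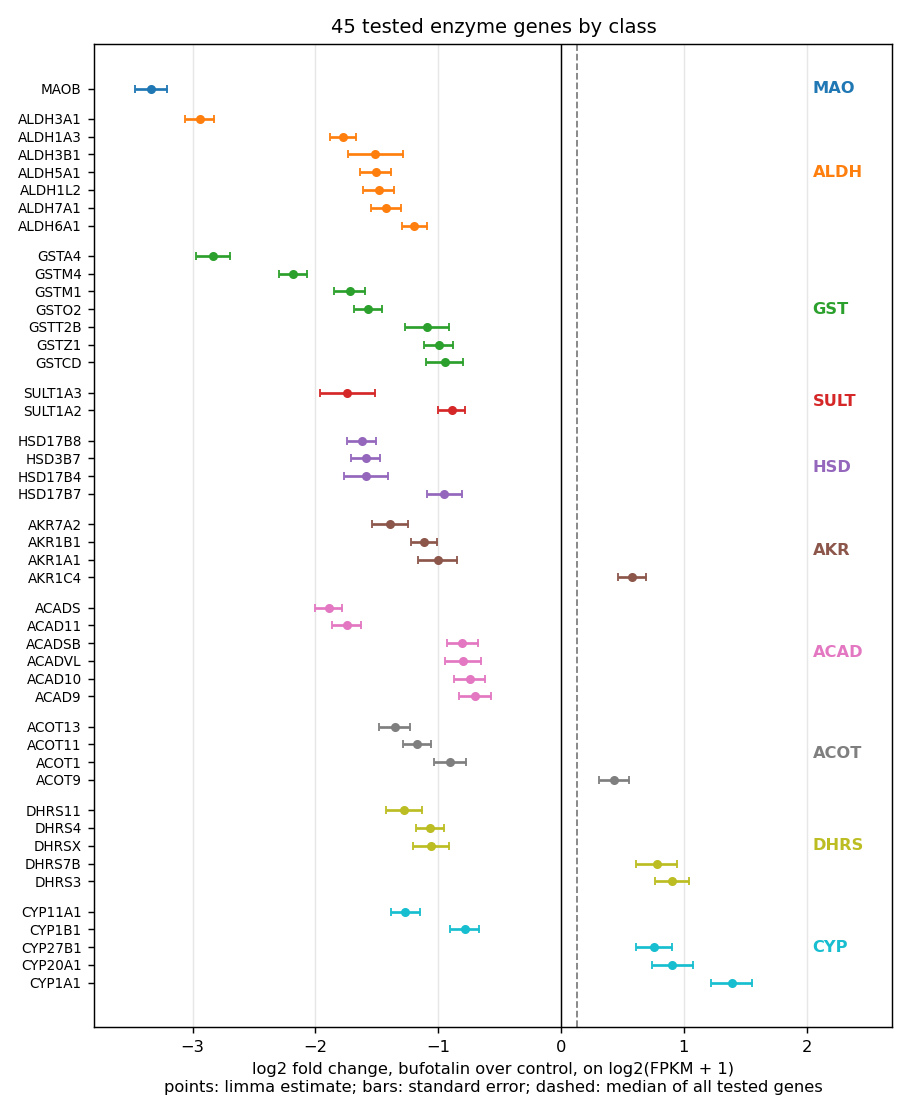
Log2 fold change of bufotalin over control (points, limma estimate on log2(FPKM + 1)) with its standard error (bars) for 45 tested enzyme genes, grouped by family; the dashed line is the median of all tested genes, 0.13. ALDH, GST, SULT, HSD and ACAD genes all lie below 0, while DHRS and CYP genes lie on both sides.

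The promoters of 4 enzyme genes are shown because they hold the motifs searched for: 3 genes that fell and carry the core of the antioxidant response element, through which the stress factor NRF2 acts on many detoxification genes, and CYP1A1, the largest rise, with the core bound by the aryl hydrocarbon receptor. Each line gives the 250 bases before the RefSeq gene start (GRCh38.p14), on the gene's own strand, 5′ to 3′. Capitals mark TGACNNNGC, on either strand, in GSTA4 (chr6:52995285-52995534, minus strand), GSTM1 (chr1:109687567-109687816, plus strand) and AKR7A2 (chr1:19312147-19312396, minus strand), and GCGTG in CYP1A1 (chr15:74725529-74725778, minus strand).
GSTA4: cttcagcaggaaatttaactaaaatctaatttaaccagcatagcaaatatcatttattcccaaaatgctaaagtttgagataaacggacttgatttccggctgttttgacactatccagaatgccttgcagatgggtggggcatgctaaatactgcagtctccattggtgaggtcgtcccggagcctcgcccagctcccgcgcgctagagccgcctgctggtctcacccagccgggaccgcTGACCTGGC
GSTM1: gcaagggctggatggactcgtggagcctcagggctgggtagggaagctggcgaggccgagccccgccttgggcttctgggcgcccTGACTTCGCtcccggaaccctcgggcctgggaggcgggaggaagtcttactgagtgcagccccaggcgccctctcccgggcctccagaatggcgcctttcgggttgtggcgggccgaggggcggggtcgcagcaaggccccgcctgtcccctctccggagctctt
AKR7A2: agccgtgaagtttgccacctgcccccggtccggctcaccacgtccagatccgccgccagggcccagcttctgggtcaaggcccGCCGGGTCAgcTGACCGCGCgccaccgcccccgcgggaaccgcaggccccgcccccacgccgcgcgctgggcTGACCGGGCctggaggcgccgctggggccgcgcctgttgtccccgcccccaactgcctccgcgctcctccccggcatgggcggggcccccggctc
CYP1A1: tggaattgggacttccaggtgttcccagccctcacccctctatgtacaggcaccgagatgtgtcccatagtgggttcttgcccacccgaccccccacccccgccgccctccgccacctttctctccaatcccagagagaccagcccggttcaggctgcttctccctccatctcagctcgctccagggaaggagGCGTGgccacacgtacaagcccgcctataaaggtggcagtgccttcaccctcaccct
The GSTA4 match covers the last 9 bases before the start, and AKR7A2 holds 3 matches, 1 of them on the opposite strand. Over all members, neither motif was clearly more common near the starts of these enzymes than elsewhere, and the shares were not tested. Of 43 members with a promoter in the RefSeq table, in windows of 250 bases before to 50 after the start, 5 held TGACNNNGC (11.6%), compared with 14.3% of 15842 protein-coding promoters (the first window listed for each gene). The others with a match were ACOT11 and ACOT13. All 5 were among the 31 members with a promoter that fell (16.1%), and 0 of the 6 that rose had a match. GCGTG was found in 44.2% of member promoters and 44.1% of all, including 4 of the 6 risen members with a promoter (CYP1A1, CYP20A1, DHRS3 and ACOT9) and 13 of 31 that fell. TATAAA was found in the windows of 5 members (11.6%, against 9.63% of all): ACADVL, CYP1A1, AKR1C4, CYP3A7 and its readthrough gene. All motifs were searched on both strands, and no match of 1 motif overlapped a match of another in these members. These are matches of letters, not measured binding.

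The largest fall belonged to MAOB (ENSG00000069535, chromosome X, 43766610 to 43882450), a mitochondrial outer membrane enzyme that oxidises phenylethylamine and dopamine. MAOB measured 28.2, 32.3 and 32.8 FPKM in the control libraries and 1.696, 2.46 and 2.38 FPKM in the treated libraries. The groups were far apart, with a mean 14.3-fold lower after bufotalin (log2 fold change -3.34, SE 0.13, adjusted p 2.4e-07 by limma). By the size of its fall on this log2 scale MAOB ranked 4 among all 4273 tested genes. By the ratio of mean FPKM, ALDH3A1 fell further among the tested members (45.6-fold).

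Aldehyde dehydrogenases turn reactive aldehydes into acids, and every tested member fell at least 2-fold on the log2 scale. ALDH3A1 (chromosome 17, 19737984 to 19748943), which handles aromatic and lipid peroxidation aldehydes, was 7.88, 8.90 and 7.32 FPKM in the controls and 0.194, 0.0759 and 0.259 FPKM in treated libraries. Every treated library was thus close to the lower end of the scale, and the means differed 45.6-fold (log2 fold change -2.94 on log2(FPKM + 1), SE 0.12, adjusted p 3.1e-07 by limma). ALDH1A3 (chromosome 15, 100877714 to 100916626), which makes retinoic acid, was 6.42, 5.95 and 5.93 FPKM in the controls and 1.11, 1.06 and 1.05 FPKM in treated libraries. The spread within each group was narrow next to the 5.68-fold gap between means (-1.78, SE 0.10).

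The other ALDH genes had log2 fold changes of -1.51 to -1.19. ALDH5A1, which breaks down succinic semialdehyde from GABA, went from 17.2 ± 0.366 to 5.43 ± 0.928 FPKM (SD, n = 3 in each group here and below). ALDH7A1, of lysine breakdown, went from 43.4 ± 4.67 to 15.5 ± 1.58 FPKM and had the highest control level of the 8 listed ALDH genes. ALDH6A1, of valine breakdown, went from 14.1 ± 0.410 to 5.62 ± 0.399 FPKM. ALDH1L2, the mitochondrial formyltetrahydrofolate dehydrogenase, fell 3.49-fold and ALDH3B1 fell 3.28-fold on mean FPKM; control values of ALDH3B1 were spread from 12.004 to 23.4 FPKM. Summed over the 8 listed genes, ALDH messages were 117 ± 3.06 FPKM in the controls and 36.3 ± 0.457 FPKM in treated libraries.

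**Figure D3:**
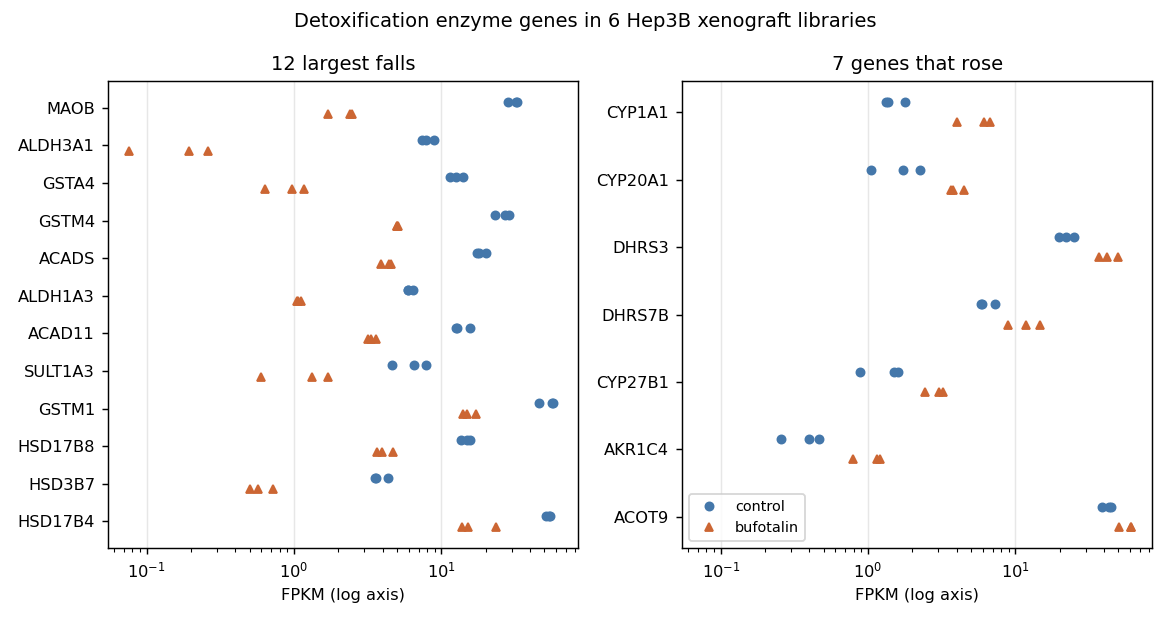
FPKM (log axis) in each control library (circles) and each bufotalin library (triangles). Shown are the 12 largest falls on log2(FPKM + 1) among genes averaging 1 FPKM or more, and the 7 enzyme genes that rose. In all 19 genes the groups are separate; ALDH3A1 shows the widest gap, and ACOT9 the narrowest among the rises.

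The conjugating enzymes fell without exception among the 9 tested. GSTA4 (chromosome 6, 52977948 to 52995304), the glutathione transferase specialised in the lipid peroxidation product 4-hydroxynonenal, was 12.6, 11.4 and 13.9 FPKM in the controls and 0.963, 0.637 and 1.17 FPKM in treated libraries. Its mean was 13.7-fold lower (log2 fold change -2.83, SE 0.14, adjusted p 7.5e-07 by limma), the third largest fall of the members on log2(FPKM + 1). GSTM4 (chromosome 1, 109656099 to 109674836), a mu-class enzyme, was 23.2, 26.9 and 28.9 FPKM in the controls and 5.06, 4.98 and 4.995 FPKM in treated libraries. The treated values were almost equal, 5.26-fold below the control mean (-2.18, SE 0.11). GSTM1 (chromosome 1, 109687814 to 109709039), whose locus starts 13.0 kb beyond the end of GSTM4, was 56.3, 56.8 and 46.2 FPKM in the controls and 17.2, 13.9 and 15.001 FPKM in treated libraries. Among the 7 listed GST genes it had the highest level in both groups, and it fell 3.45-fold (-1.72, SE 0.13). The mu-class genes are similar in sequence, and GSTM2 overlaps the GSTM4 locus, so the split of reads between them is uncertain.

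GSTO2, an omega-class enzyme that reduces dehydroascorbate, fell from 7.55 ± 0.361 to 1.88 ± 0.275 FPKM, and GSTZ1, which isomerises maleylacetoacetate in tyrosine breakdown, fell from 8.31 ± 0.604 to 3.68 ± 0.461 FPKM. GSTCD had a log2 fold change of -0.95. GSTT2B, a near copy of GSTT2, had -1.09, but -0.40 and no call under quantile normalization. SULT1A3 (chromosome 16, 30199228 to 30204310), which sulfates dopamine and has a near-identical copy in SULT1A4, was 4.60, 7.91 and 6.52 FPKM in the controls and 1.71, 1.33 and 0.599 FPKM in treated libraries. The spread was wide in both groups, but they did not overlap (-1.74, SE 0.23, adjusted p 0.00011 by limma). SULT1A2, which resembles SULT1A1, fell from 1.44 ± 0.199 to 0.318 ± 0.112 FPKM, with a log2 fold change of -0.89 that was -0.21 and not called under quantile normalization. Conjugation genes summed to 127 ± 3.94 FPKM in the controls and 32.8 ± 2.25 FPKM in treated libraries.

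Enzymes that exchange hydroxyl and carbonyl groups fell in 10 of 13 cases. Among hydroxysteroid dehydrogenases, HSD17B4 (chromosome 5, 119452473 to 119637199), the peroxisomal bifunctional enzyme of fatty acid and bile acid side-chain oxidation, was 53.7, 54.4 and 51.0 FPKM in the controls and 15.2, 23.3 and 13.8 FPKM in treated libraries. Bufotalin replicate 2 was the highest treated library and still below every control (-1.59, SE 0.18). HSD17B8 (chromosome 6, 33204655 to 33206831), of mitochondrial fatty acid synthesis, was 14.9, 15.6 and 13.7 FPKM in the controls and 4.71, 3.66 and 3.96 FPKM in treated libraries (-1.62, SE 0.12). HSD3B7 (chromosome 16, 30985207 to 30989147), of bile acid synthesis, was 3.59, 3.52 and 4.33 FPKM in the controls and 0.719, 0.504 and 0.567 FPKM in treated libraries. It was low in absolute level but fell 6.39-fold (-1.59, SE 0.12). HSD17B7, which also acts in cholesterol synthesis, fell 2.08-fold from 16.3 ± 3.43 FPKM.

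The aldo-keto reductases included 2 of the 5 most abundant members. AKR1A1 (chromosome 1, 45550543 to 45570049), aldehyde reductase, was 89.8, 79.5 and 95.1 FPKM in the controls and 50.2, 48.0 and 33.8 FPKM in treated libraries. AKR1B1 (chromosome 7, 134442356 to 134459284), aldose reductase of the polyol pathway, was 64.8, 72.4 and 71.2 FPKM in the controls and 33.2, 30.6 and 30.7 FPKM in treated libraries. Their means were 2.00-fold and 2.21-fold lower, with log2 fold changes of -1.003 (SE 0.16) and -1.12 (SE 0.11), and neither pair of groups overlapped. AKR7A2, which reduces succinic semialdehyde and aflatoxin dialdehyde, fell from 36.9 ± 7.87 to 13.2 ± 0.626 FPKM (-1.39, SE 0.15). AKR1C4 (chromosome 10, 5195462 to 5218949), the liver form of the steroid-reducing AKR1C group, rose instead, from 0.257, 0.396 and 0.461 FPKM in control to 1.16, 0.792 and 1.21 FPKM in treated libraries. The level stayed low, the rise was 2.84-fold (0.58 on log2(FPKM + 1), SE 0.12, adjusted p 0.0011 by limma), and reads may be shared with its close relatives.

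Short-chain dehydrogenases moved both ways, and their summed level was 69.6 ± 6.03 FPKM in the controls and 72.1 ± 9.62 FPKM in treated libraries. DHRS3 (chromosome 1, 12567910 to 12618210), which reduces retinal to retinol, rose from 22.2, 19.8 and 24.8 FPKM to 49.4, 41.5 and 37.0 FPKM. All treated libraries lay above the controls (0.90, SE 0.14, adjusted p 0.00019 by limma). DHRS7B (chromosome 17, 21110239 to 21193265), of ether lipid synthesis, rose from 5.82, 5.95 and 7.21 FPKM to 14.6, 11.8 and 8.87 FPKM (0.78, SE 0.17). DHRS11 fell from 4.98 ± 0.717 to 1.47 ± 0.353 FPKM, and DHRS4, a peroxisomal carbonyl reductase with close copies beside it, from 18.1 ± 0.854 to 8.18 ± 0.945 FPKM. DHRSX had a log2 fold change of -1.06. In a list of 17 retinoid enzymes of these families 4 were listed and 3 tested: DHRS3 rose, and ALDH1A3 and DHRS4 fell.

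The acyl-CoA enzymes fell in 9 of 10 cases. ACADS (chromosome 12, 120725774 to 120740008), the short-chain dehydrogenase of mitochondrial fatty acid oxidation, was 18.0, 17.5 and 20.2 FPKM in the controls and 4.54, 4.39 and 3.90 FPKM in treated libraries. Its mean was 4.34-fold lower (-1.89, SE 0.11, adjusted p 1.4e-06 by limma). ACAD11 (chromosome 3, 132558138 to 132660082), which acts on long chains, was 12.6, 12.8 and 15.6 FPKM in the controls and 3.30, 3.61 and 3.18 FPKM in treated libraries (-1.75, SE 0.12); its locus overlaps other genes. ACADVL (chromosome 17, 7217125 to 7225266), the very-long-chain dehydrogenase and the most abundant member, was 125, 87.2 and 100.1 FPKM in the controls and 52.8, 59.4 and 64.6 FPKM in treated libraries. Controls were spread widely, and the fall was smaller, 1.77-fold (-0.80, SE 0.15). ACAD9, an assembly factor of respiratory complex I, and ACAD10 had -0.70 and -0.74. ACADSB, of isoleucine breakdown, had -0.80, but -0.12 and no call under quantile normalization.

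Thioesterases release free fatty acids from acyl-CoA. ACOT13 (chromosome 6, 24667035 to 24720906) fell from 7.99, 8.22 and 6.35 FPKM to 2.13, 2.34 and 2.47 FPKM (-1.36, SE 0.13). It lies 130 kb from ALDH5A1, which fell by a similar amount (-1.51, SE 0.13). ACOT11 and ACOT1, the latter close in sequence to ACOT2, had -1.17 and -0.90. ACOT9 (chromosome X, 23701055 to 23770486), a mitochondrial thioesterase, was 38.7, 44.5 and 42.9 FPKM in the controls and 60.4, 60.9 and 50.3 FPKM in treated libraries. That rise was the smallest of the members (1.36-fold, log2 fold change 0.43, SE 0.12, adjusted p 0.0066 by limma), and under quantile normalization it was 0.17 and not called. The summed level of the 4 thioesterase genes, most of it ACOT9, was 60.6 ± 3.16 FPKM in the controls and 64.1 ± 6.34 FPKM in treated libraries.

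**Figure D4:**
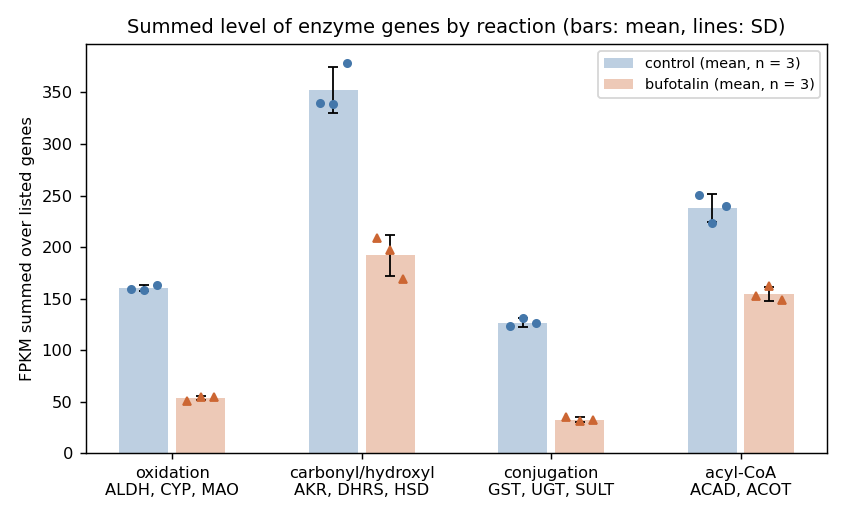
FPKM summed over the listed genes of each kind of reaction, with bars for the mean of 3 libraries, lines for the SD and points for single libraries. Summed levels went from 160 to 53.9 FPKM for oxidation and 352 to 192 FPKM for hydroxyl and carbonyl exchange. For conjugation they went from 127 to 32.8 FPKM and for acyl-CoA enzymes from 238 to 155 FPKM. These sums did not overlap between groups. The CYP part of oxidation did not fall, with 11.8 to 13.1 FPKM in the controls and 13.0 to 16.9 FPKM in treated libraries.

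Cytochromes P450 gave the members' largest rise. CYP1A1 (ENSG00000140465, chromosome 15, 74719542 to 74725536), which oxidises polycyclic aromatic compounds and is induced through the aryl hydrocarbon receptor, was 1.37, 1.33 and 1.77 FPKM in the controls and 4.01, 6.69 and 6.15 FPKM in treated libraries. All treated libraries were above the controls, 3.77-fold on the means (1.39, SE 0.17, adjusted p 4.9e-05 by limma), and it alone of the members rose at least 2-fold on that scale (7.14% of all tested genes did). CYP1B1, another target of this receptor, went the other way, from 3.30 ± 0.267 to 1.497 ± 0.248 FPKM (-0.79), with -0.07 and no call under quantile normalization. The receptor gene AHR was 10.2 ± 2.18 FPKM in the controls and 16.8 ± 3.08 FPKM in treated libraries (0.67), and its partner ARNT was 19.5 ± 0.685 and 11.6 ± 1.02 FPKM (-0.70); both passed the test and were picked after their values were seen.

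CYP20A1 (chromosome 2, 203238940 to 203305611), a P450 without a known substrate, rose from 1.72, 2.27 and 1.05 FPKM to 3.76, 4.44 and 3.63 FPKM (0.91, SE 0.17). CYP27B1 (chromosome 12, 57762334 to 57768986), the hydroxylase that activates vitamin D, rose from 1.49, 0.877 and 1.59 FPKM to 2.45, 3.02 and 3.22 FPKM (0.76, SE 0.15). CYP24A1, which inactivates vitamin D, was below the minimum and was 0.610, 0.298 and 0.789 FPKM in the controls and 0.134, 0.0712 and 0.122 FPKM in treated libraries. The 2 vitamin D enzymes thus had opposite orders between groups, with no overlap in either. CYP11A1 (chromosome 15, 74337759 to 74367646), the first enzyme of steroid hormone synthesis, fell from 2.21, 2.15 and 2.83 FPKM to 0.495, 0.312 and 0.420 FPKM (-1.27, SE 0.12). It lies 352 kb from CYP1A1, which rose. The median of the tested CYP genes was 0.76, and 1.40 under quantile normalization. But it went to -0.13 with no FPKM minimum and to 0.07, -0.51 and -0.49 without bufotalin replicate 1, 2 or 3. In the settings without the minimum or without a bufotalin replicate, other low P450 genes enter.

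Below the minimum were 8 members, which have values but no test. CYP3A7, the fetal liver form of the main drug-oxidising P450 group, was listed at 0 in all 3 controls and at 0.460, 0.484 and 0.617 FPKM in treated libraries. CYP3A7-CYP3A51P, a readthrough gene over the same locus, was also listed at 0 in controls and at 0.00290, 0.124 and 0.403 FPKM in treated libraries, so reads of this pair cannot be told apart. The leukotriene hydroxylase CYP4F3 was 0.612, 0.854 and 1.13 FPKM in the controls and at most 0.0644 FPKM in treated libraries. Its neighbour CYP4F12 was 0.540 to 0.956 and 0.0278 to 0.464 FPKM. SULT2B1, which sulfates cholesterol, was 0.195 to 0.672 FPKM in the controls and listed at 0 in all treated libraries but bufotalin replicate 3 (0.0623 FPKM). UGT1A6, whose exons overlap those of other UGT1A genes, was at most 0.240 FPKM in the controls and listed at 0 in the 3 treated libraries. ALDH8A1 was listed at 0 in controls and in bufotalin replicate 2, and it was the only listed member whose groups overlapped.

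The lncRNA table added 5 noncoding transcripts named after genes of these families, among 536 transcripts listed. GSTP1-203 (ENST00000467591, chromosome 11, 67584795 to 67586569), from the locus of the pi-class glutathione transferase, was 1.67, 1.15 and 1.54 FPKM in the controls and 30.4, 20.5 and 29.1 FPKM in treated libraries. It rose 18.4-fold on the means (4.10 on log2(FPKM + 0.1), SE 0.32, adjusted p 0.00023 by limma), while no value of the GSTP1 gene was analysed here. CYP3A7-203 was listed at 0 in controls and at 0.337, 0.246 and 0.411 FPKM in treated libraries, and it passed the test (2.09, SE 0.22). GSTM4-211 was 0.286, 3.197 and 1.65 FPKM in the controls and at most 0.0106 FPKM in treated libraries (-3.66, SE 0.81); under quantile normalization it was -3.26 with an adjusted p of 0.055 by limma. HSD17B7-208 was 0.129, 0.149 and 0.607 FPKM in the controls and listed at 0 after treatment (-1.78, SE 0.48, adjusted p 0.018 by limma). Without bufotalin replicate 1, 2 or 3 it was again -1.78, with adjusted p of 0.053 to 0.054 by limma, and under quantile normalization it was -1.26 and not called. All 4 tested transcripts were called, next to 73.3% of all 465 tested (29.2% higher and 44.1% lower). GSTM4-211 and HSD17B7-208 passed the FPKM minimum only through their control level, and CYP3A7-203 only through its treated level. CYP4F3-207, below the minimum, was 0.101 to 0.259 FPKM in the controls and listed at 0 after treatment. Groups of all 5 were separate, as for 81.2% of listed transcripts. Transcripts of 1 locus share reads with the gene, so these values are not separate evidence for it.

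**Figure D5:**
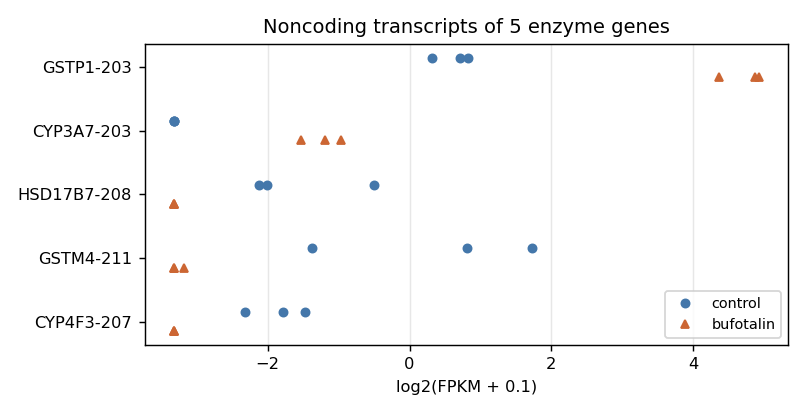
Level of 5 noncoding transcripts, as log2(FPKM + 0.1), in each control (circles) and bufotalin library (triangles); points at the edge of the axis are listed values of 0. GSTP1-203 and CYP3A7-203 are higher and the other 3 lower in treated libraries, with no overlap.

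The subsets of these families by place and pathway showed the same majority. Of 32 members known for a mitochondrial location 18 were listed and 17 tested, and 15 fell and 2 rose (CYP27B1 and ACOT9), with a median of -1.27. Of 35 steroid and bile acid enzymes 7 were listed and 6 tested; 5 fell and AKR1C4 rose, with a median of -1.43. These lists are drawn from the same members and add no independent evidence.

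Genes that work beside these families were read from lists made with earlier results of these data known, and their counts stand next to 48.8% lower and 44.3% higher among all tested genes, with no test between them. Of 33 other first-stage enzymes and electron donors 10 were listed, and 8 fell and 2 rose (median -1.06). EPHX2, the soluble epoxide hydrolase, fell from 7.17 ± 1.13 to 1.04 ± 0.197 FPKM, and FDXR, which passes electrons to mitochondrial P450 enzymes, from 8.85 ± 0.455 to 2.17 ± 0.479 FPKM. AOX1, aldehyde oxidase, rose from 0.434 ± 0.0744 to 5.27 ± 0.957 FPKM, and it passed the FPKM minimum only through its treated level. The call of CYB5A was lost under quantile normalization (-0.33). Of 28 other conjugation and cofactor genes 9 were listed, and 6 fell and 3 rose (median -0.93), but 3 of these 9 calls did not hold in every setting. HNMT lost its call under quantile normalization (-0.23), as did MAT2A (0.11) and GGT1 (-1.52). MAT2A also lost it without control replicate 1 (0.28), bufotalin replicate 2 (0.33) or bufotalin replicate 3 (0.39), and GGT1 without control replicate 1 or 3 (both -1.54), bufotalin replicate 1 (-1.34) or bufotalin replicate 2 (-2.03). PAPSS1, which makes the sulfate donor, fell from 12.9 ± 0.274 to 5.65 ± 0.453 FPKM. PAPSS2, which makes the same donor, rose from 9.49 ± 0.720 to 16.0 ± 1.16 FPKM (0.70), and SLC35B2 rose as well (0.97). GSS, which makes glutathione, fell from 24.8 ± 3.10 to 9.18 ± 1.797 FPKM. MGST3, a membrane-bound glutathione transferase, fell from 153 ± 14.6 to 69.9 ± 10.5 FPKM.

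In the list of 24 NRF2 targets 14 were listed, of which 8 were called higher and 6 lower (median 0.50). The groups overlapped for 2 of the 8, and their calls were lost in some settings: TXNRD1 under quantile normalization (0.39) and without control replicate 1 (0.52), control replicate 2 (0.56) or bufotalin replicate 2 (0.57), and SLC7A11 without control replicate 1 (0.41), control replicate 3 (0.68), bufotalin replicate 2 (0.49) or bufotalin replicate 3 (0.48). The small MAF partners MAFF and MAFG rose from 4.70 ± 0.180 to 22.4 ± 1.96 FPKM and from 10.5 ± 0.938 to 34.1 ± 2.35 FPKM, while ME1, an NADPH-forming malic enzyme, fell from 34.7 ± 1.45 to 10.02 ± 1.35 FPKM. Of 26 antioxidant enzymes 10 were listed, with 6 higher and 3 lower (median 0.62). Of the 6 higher calls 3 did not hold in every setting: TXNRD1 as above, PRDX4 under quantile normalization (0.25) and without control replicate 1 (0.40) or bufotalin replicate 2 (0.43), and GLRX2 under quantile normalization (1.48) and without control replicate 1 (1.63), bufotalin replicate 1 (1.33), bufotalin replicate 2 (1.41) or bufotalin replicate 3 (1.40). TXNRD2, the mitochondrial thioredoxin reductase, rose from 35.7 ± 4.25 to 94.8 ± 18.2 FPKM. Catalase (CAT) fell from 35.7 ± 2.63 to 9.64 ± 1.46 FPKM, and the methionine sulfoxide reductases MSRB2 and MSRB1 fell as well (-1.76 and -1.28). Of 33 nuclear receptors and partners 14 were listed and 12 tested, with 7 higher and 5 lower (median 0.36). Calls were lost for PPARA under quantile normalization (-0.36), for CEBPA without control replicate 1 (0.32) and for PPARGC1A without control replicate 1 (0.27) or bufotalin replicate 3 (0.30). NR1H3, the oxysterol receptor LXR alpha, fell from 18.9 ± 3.01 to 3.04 ± 0.551 FPKM. RARB, a retinoic acid receptor, rose from 0.0219 ± 0.00932 to 1.33 ± 0.0896 FPKM, and it passed the FPKM minimum only through its treated level. Of 21 transporters 7 were listed and 5 tested, with 2 higher, 2 lower and ABCC1 not called (0.23; 0.41 and called with libraries scaled to equal medians, 0.29 and called without control replicate 3). The uptake carrier SLCO2B1 fell from 9.52 ± 0.311 to 1.76 ± 0.559 FPKM, the exporter ABCC3 fell (-0.98), and SLCO4A1 rose (0.91).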

How the data were processed

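Total RNA of 3 control and 3 bufotalin libraries was analysed; the small RNA libraries were not used. FPKM values per gene and per lncRNA transcript were deposited by the authors for features they had selected as different. Per the submitters' processing notes, the tools were DESeq2 1.20.0, featureCounts 1.5.0-p3, HISAT2 2.0.5, fastp and CASAVA 1.8, and the build GRCh38; the sources used here do not say which tool made which values, how features were selected or whether libraries were stranded. Depth was unknown, so no interval or floor was given. limma 3.58.1 (R 4.3.3; trended, robust eBayes, two-sided) was fitted on log2(FPKM + 1) over all listed genes averaging 0.5 FPKM or more, and on log2(FPKM + 0.1) over transcripts averaging 0.1 FPKM or more; p-values were adjusted by Benjamini-Hochberg and called under 0.05. Fold changes on these scales understate low genes; folds of means are ratios of mean FPKM. Python 3.11.15, numpy 2.4.6, pandas 2.3.3 and matplotlib 3.10.9 were also used. The fits were also run on simulated data in which most genes were unchanged. Since this table was selected as different, that run does not bear on the calls here.

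Members and lists were chosen with earlier results of these data known. Given in every library are the 12 largest falls and up to 12 largest rises among called members that average 1 FPKM or more and whose groups do not overlap, and most of the 5 most abundant members and of the extremes of each class with at least 3 tested members; from each pathway list up to 3 genes by smallest p are named, except an item that is not reported here. Other genes named were chosen after their values were seen. Loci of 31 of the 53 members overlap another RefSeq gene, 17 of them a protein-coding one, and without strand such reads cannot be told apart. Alternatives covered the pseudocount, the FPKM minimum, scaling, the trend, the replicate number as a block and each library left out in turn.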

Additional observations from a re-analysis of the deposited data

How the results depend on the processing

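Of the 45 tested enzyme genes 42 were tested under all 14 alternatives; ACADSB, AKR1C4 and SULT1A2 were not tested with a mean of at least 1 FPKM. No tested direction turned. Of the 42, 39 kept their call throughout; ACOT9, CYP1B1 and GSTT2B, and also ACADSB and SULT1A2, lost it under quantile normalization only. Of 58 tested genes of the other lists 45 kept their call, or lack of one, in every alternative they were tested in. Counts were 34 to 42 lower and 6 to 8 higher, and 38 to 40 lower and 7 higher with each library left out. The enzymes' median of -1.17 was -1.55 and -1.63 with a pseudocount of 0.1 or 0.01, -1.06 with no FPKM minimum, -1.02 with libraries scaled to equal medians, -0.97 under quantile normalization, and -1.23 to -1.12 with each library left out. The median of all tested genes was 0.31 after scaling to equal medians and -0.14 with no minimum. Called transcripts numbered 4, but 2 with a mean of at least 0.5 FPKM, 2 under quantile normalization and 3 to 4 with each library left out; scaling to equal medians could not be fitted for them, since a library's median was 0. HSD17B7-208 also lost its call with a pseudocount of 1. The CYP median of 0.76 turned to -0.13 with no FPKM minimum and to -0.51 and -0.49 without bufotalin replicate 2 or 3. Its range over the libraries left out was -0.51 to 0.82. It was higher, at 1.40, under quantile normalization, and 1.11 and 1.17 with a pseudocount of 0.1 or 0.01. GPX1, not called at 0.50, was -0.11 without bufotalin replicate 2 and 0.93 without bufotalin replicate 3. Libraries with the same number did not deviate together (correlations of -0.05 to 0.03 over genes), and not every library correlated best with its own number; with the replicate number as a block, calls were 7 higher and 38 lower among the enzymes and 1864 and 2093 among all genes, next to 1894 and 2087 without it, and 4 transcripts. FPKM without counts, 3 libraries a group and a table selected on these samples limit precision.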
